A study of Homo sapiens with 12 samples.

Results

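The genes described here encode the epidermal growth factor receptor (EGFR) and its family in renal carcinoma cells: the receptors EGFR, ERBB2 and ERBB3, the ligands EGF, TGFA, AREG, EREG, HBEGF and NRG1, and the receptor inhibitor ERRFI1. These 10 genes were chosen by name for their role in the family, out of 20114 gene symbols in the deposited expression tables. The H3K27ac peaks around EGFR, between 55 and 55.35 Mb of chromosome 7 (hg19), were described with them. Of all peaks in the parental lists, 42 of 54810 in replicate 1 and 45 of 57975 in replicate 2 lay in that window. In the resistant lists, 76 of 52367 peaks in replicate 1 and 38 of 52856 in replicate 2 lay there. All 10 genes had enough reads to be tested.

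Parental Caki-1, an established human clear cell renal carcinoma line grown in RPMI 1640, was set against a derivative resistant to cabozantinib, an inhibitor of several receptor tyrosine kinases including MET, AXL and VEGFR2. The derivative was selected in McCoy's 5A medium over 2 months with drug raised from 5 to 20 µM, and was then kept in 10 µM. Resistance, long selection, the drug itself and the medium cannot be told apart in this design, and all resistant libraries come from 1 derived line. The 12 samples were 4 RNA-seq libraries, 4 H3K27ac ChIP-seq libraries and 4 ChIP inputs, with 2 of each per line; the inputs are not analysed here. The labels do not say that the replicates were separate cultures, so p-values measure only the spread between these libraries. Nor do they say that an RNA and a ChIP library of the same number came from the same cells.

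Ligands of the EGFR family are made as membrane-bound precursors, and metalloproteases of the ADAM family release most of them from the cell surface. EGF, TGFA, AREG and EPGN bind EGFR, and HBEGF, BTC and EREG bind EGFR and ERBB4. The neuregulins NRG1 and NRG2 bind ERBB3 and ERBB4. ERBB2 has no known ligand and pairs with the other receptors, while ERBB3 has little kinase activity and depends on its partners. Bound receptors signal through GRB2, SHC1 and GAB1 to RAS, RAF, MEK and ERK and to PI3 kinase, and are then taken up into endosomes. Tubule cells of the kidney make EGF in health, and EGFR is widely present in renal cell carcinoma. H3K27ac, acetylation of lysine 27 on histone H3, marks active promoters and enhancers.

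Total estimated counts ran from 10584083 to 14664723 per RNA library. The resistant replicates stood further apart than the parental ones: the median gene differed by 0.33 on the log2 scale between resistant replicates and by 0.10 between parental ones. Every member is therefore given in each library, as CPM (counts scaled to a common library size, with factors from TMM, a method that equalises the bulk of genes between libraries). Across 12792 genes tested with edgeR's quasi-likelihood test at a Benjamini-Hochberg adjusted p of 0.05, 379 were higher and 436 lower in the resistant line. Of 10 renal epithelial line markers, PAX8, KRT8, KRT18 and VIM were abundant and PAX2 was at 0 counts in all libraries. CA9 had 0 and 2 counts in parental replicates 1 and 2, and 0 and 14 in resistant replicates 1 and 2. CDH16, a renal cadherin, rose (log2 fold change 1.51 ± 0.31, SE, edgeR adjusted p = 0.0459) and CDH2, N-cadherin, fell by 0.93 ± 0.19 (adjusted p = 0.0452). Both calls lay near the threshold, passing in 8 and 7 of 13 alternatives; that of CDH16 was lost without parental replicate 1 (0.155) and that of CDH2 without parental replicate 1 (0.225) or 2 (0.260). Of 12 markers of other cell types in the table, CD3E and CDH5 were at 0 in every library, and PTPRC, LYZ and VWF had 2 to 4 counts each over all libraries. The summed level of those 12 was 95.3 to 102 CPM in the parental and 71.3 to 80.2 in the resistant line; DCN, which encodes decorin, fell by 4.24 ± 0.50 (adjusted p = 0.0129). The part of these differences in the results below was not tested. In bulk RNA, fewer cells with a transcript and less transcript per cell cannot be told apart.

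Among the family members, the ligand EGF rose in the resistant line, and the ligands EREG and HBEGF fell. EGF was 3.44-fold higher, EREG 2.16-fold lower and HBEGF 1.94-fold lower, from 2 libraries per line. The other 7 members did not pass the test, and EGFR itself was high in 1 resistant library and close to the parental level in the other. Thus 1 of 10 members was called higher, where 2.96% of all genes tested were, and 2 of 10 were called lower, where 3.41% of all genes were; in either direction 6.37% of all genes passed. The median log2 fold change of the 10 members was -0.29, against 0.02 over all genes tested. In 5 members both resistant libraries lay below both parental ones, in 1 they lay above, and in 4 the lines overlapped; among all genes 29.7% lay below and 30.9% above.

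**Figure D1:**
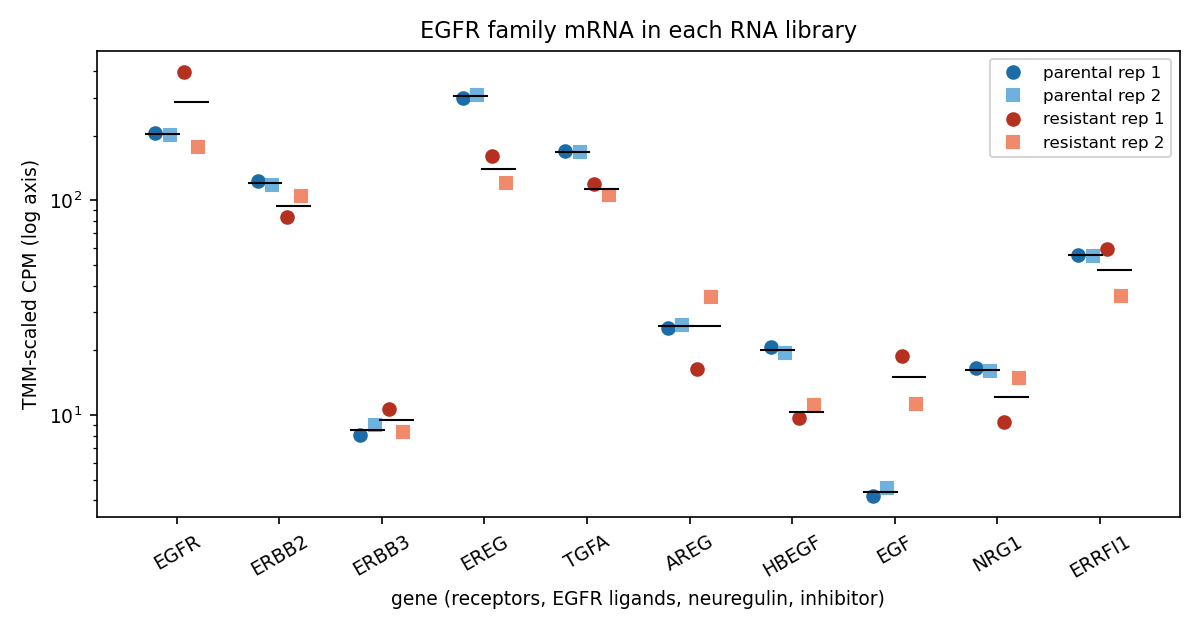
TMM-scaled CPM (log axis) of the 10 family members in the 4 RNA libraries; each dot is 1 library and each short line the mean of a line's 2 libraries. EGF lies higher in both resistant libraries and EREG, HBEGF, TGFA, ERBB2 and NRG1 lie lower, while EGFR, AREG and ERRFI1 are spread widely between the resistant replicates.

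The promoters of the genes the results turn on are shown here as the 250 bases before the annotated RefSeq start (GRCh38.p14), read 5′ to 3′ on the gene's strand. RefSeq promoters were matched for 8 of the 10 members, all but ERBB3 and NRG1. EGFR is shown because, of the genome-wide H3K27ac peaks, those around it are described here. EGF, EREG and HBEGF are shown because their transcripts passed the test, and AREG because it is the gene next to EREG. Capitals mark 4 motifs searched on both strands: the AP-1 site TGACTCA, the cyclic AMP element TGACGTCA, the TATA box TATAAA and the GC box GGGCGG. EGFR lies at chr7:55018767-55019016 (plus strand), EGF at chr4:109912633-109912882 (plus), EREG at chr4:74364895-74365144 (plus), AREG at chr4:74444886-74445135 (plus) and HBEGF at chr5:140346604-140346853 (minus).
EGFR: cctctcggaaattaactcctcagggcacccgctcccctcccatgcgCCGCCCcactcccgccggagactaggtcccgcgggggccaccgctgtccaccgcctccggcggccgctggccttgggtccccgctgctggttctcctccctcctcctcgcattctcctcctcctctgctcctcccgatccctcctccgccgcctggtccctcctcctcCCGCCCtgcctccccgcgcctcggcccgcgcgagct
EGF: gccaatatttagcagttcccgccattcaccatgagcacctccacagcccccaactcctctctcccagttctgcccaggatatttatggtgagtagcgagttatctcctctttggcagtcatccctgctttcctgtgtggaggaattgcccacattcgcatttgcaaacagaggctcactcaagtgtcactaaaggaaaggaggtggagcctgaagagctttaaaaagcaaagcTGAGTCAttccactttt
EREG: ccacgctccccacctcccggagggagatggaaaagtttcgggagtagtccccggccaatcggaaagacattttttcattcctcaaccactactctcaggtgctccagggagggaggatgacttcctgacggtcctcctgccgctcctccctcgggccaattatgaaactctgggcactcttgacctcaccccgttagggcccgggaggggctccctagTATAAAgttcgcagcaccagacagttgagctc
AREG: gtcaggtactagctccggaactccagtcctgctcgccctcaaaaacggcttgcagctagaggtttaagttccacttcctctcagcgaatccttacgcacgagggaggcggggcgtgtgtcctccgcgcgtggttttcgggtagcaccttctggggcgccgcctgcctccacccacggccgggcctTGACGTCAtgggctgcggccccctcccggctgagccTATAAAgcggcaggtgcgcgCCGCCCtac
HBEGF: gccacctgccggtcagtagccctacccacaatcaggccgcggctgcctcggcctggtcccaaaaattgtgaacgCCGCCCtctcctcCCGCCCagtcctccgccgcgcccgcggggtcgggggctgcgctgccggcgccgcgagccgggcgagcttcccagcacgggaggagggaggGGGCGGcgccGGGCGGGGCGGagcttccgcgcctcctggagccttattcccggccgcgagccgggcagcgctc

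The 5 promoters differ in make-up. The EGFR sequence is 73.6% G and C and holds 2 GC boxes, whose first letters lie 204 and 36 bases before the start, and no TATA box. HBEGF, at 76.4% G and C, holds 5 GC boxes, of which those at 63 and 58 bases before the start overlap. EREG holds 1 TATA box 32 bases before its start, and AREG holds 1 at 29 bases together with 1 cyclic AMP element at 65 bases and 1 GC box at 9 bases. EGF, the poorest in G and C at 48.8%, holds 1 AP-1 site 17 bases before its start. Over 35116 RefSeq promoters of this length, 4.2% hold that AP-1 site, 1.65% the cyclic AMP element, 10.7% the TATA box and 42.6% the GC box. Of the members not shown, TGFA holds 3 GC boxes, ERRFI1 holds 1, and ERBB2 holds none of the 4 motifs. A match describes the letters and says nothing on binding.

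EGFR, the receptor that gives the family its name (Entrez gene 1956, chr7:55019017-55211628 in GRCh38), measured 205 and 201 CPM in parental replicates 1 and 2, and 395 and 176 in resistant replicates 1 and 2. The first resistant library was thus high and the second lay below both parental ones, so the lines overlapped. The means were 203 ± 2.50 and 286 ± 155 (SD, n = 2 per line), and the log2 fold change of 0.49 ± 0.36 (SE, 95% interval -0.38 to 1.37) did not pass the test (edgeR adjusted p = 0.417). Resistant replicate 1 held 2.24 times the EGFR level of replicate 2, and 97.8% of all genes tested had a smaller gap between those libraries. One library decides the sign: without resistant replicate 1 EGFR was lower (-0.20, edgeR adjusted p = 0.0187), and without resistant replicate 2 it was higher (0.95, adjusted p = 0.000423). Those 2 fits take the spread of the lone resistant library from the parental pair.

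ERBB2, the partner receptor without a ligand, measured 123 and 117 CPM in the parental and 83.3 and 104 in the resistant libraries. Both resistant values lay below both parental ones, yet the log2 fold change of -0.36 ± 0.16 (95% interval -0.76 to 0.04) did not pass (edgeR adjusted p = 0.224). ERBB3, the main neuregulin receptor in many epithelia, was low at 8.08 and 9.01 in the parental and 10.6 and 8.31 in the resistant libraries. Its lines overlapped (0.15 ± 0.24, 95% interval -0.43 to 0.73, adjusted p = 0.722). ERBB4, the fourth receptor, had 2 counts summed over the parental and 10 over the resistant libraries, too few to test; the depth-scaled ratio was 3.63 with a 95% counting interval of 0.774 to 34.1. The receptor RNA of both lines was thus nearly all EGFR and ERBB2.

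Levels of different genes can be compared only per length, and the deposited TPM values allow that. EGFR made up 40.1% and 42.6% of the summed TPM of the 4 receptors in the parental libraries, and 65.4% and 39.5% in resistant replicates 1 and 2. The ratio of EGFR to ERBB2 TPM was 0.748 and 0.818 in the parental libraries, 2.27 in resistant replicate 1 and 0.764 in resistant replicate 2. ERBB2 RNA thus exceeded EGFR RNA in 3 of the 4 libraries, and resistant replicate 1 had the reverse order.

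EGF (chr4:109912883-110013766, GRCh38), a high-affinity EGFR ligand made as a very large membrane precursor, measured 4.19 and 4.56 CPM in the parental and 18.9 and 11.2 in the resistant libraries. Both resistant values stood clear above the parental ones, with replicate 1 the higher. Its log2 fold change was 1.78 ± 0.32 (95% interval 1.00 to 2.57, edgeR adjusted p = 0.034). EGF stayed a scarce transcript per length: its mean TPM was 1.23 ± 0.0990 in the parental and 4.10 ± 1.98 in the resistant line (SD, n = 2 each). The call was lost with limma-voom (adjusted p = 0.0533) and when log2(TPM + 1) was tested with limma (log2 fold change 1.14, adjusted p = 0.112), but the rise was seen in all 13 alternatives.

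EREG, epiregulin (chr4:74365145-74388749, GRCh38), a low-affinity ligand of EGFR and ERBB4, measured 298 and 310 CPM in the parental and 160 and 120 in the resistant libraries. The lines were well apart. EREG fell by 1.11 ± 0.18 on the log2 scale (95% interval -1.55 to -0.67, edgeR adjusted p = 0.0257). It had been the most abundant family transcript per length in the parental line, at 88.4 ± 1.65 TPM, and was at 40.1 ± 13.5 TPM in the resistant line (SD, n = 2 each). The call was lost without parental replicate 1 (adjusted p = 0.0787), without parental replicate 2 (0.116) and with limma on TPM (0.0529 with a pseudocount of 1).

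HBEGF, heparin-binding EGF-like growth factor (chr5:140332843-140346603, GRCh38), measured 20.6 and 19.5 CPM in the parental and 9.63 and 11.1 in the resistant libraries. Here too both resistant libraries were lower, and they lay close together. HBEGF fell by 0.95 ± 0.19 (95% interval -1.42 to -0.49, edgeR adjusted p = 0.0439). This call lay near the threshold: it was lost under a stricter filter on low counts, mean log2 CPM 2 (0.0511), without parental replicate 1 (0.333), without parental replicate 2 (0.246) and with limma on TPM (0.0783 with a pseudocount of 1).

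TGFA, transforming growth factor alpha (chr2:70447284-70553826, GRCh38), measured 169 and 168 CPM in the parental and 119 and 105 in the resistant libraries. Both resistant values lay below, and the log2 fold change of -0.59 ± 0.14 (95% interval -0.93 to -0.24) did not pass with edgeR (unadjusted p = 0.006, adjusted p = 0.0682), while DESeq2 gave an adjusted p of 0.0437. The effective length that the deposited TPM assign to TGFA, relative to the median gene, was 1.17 and 1.24 in the parental and 1.33 and 1.49 in the resistant libraries. On log2(TPM + 1) the difference was -0.84 (limma adjusted p = 0.0918), larger than on counts.

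AREG, amphiregulin (chr4:74445136-74455005, GRCh38), another low-affinity EGFR ligand, measured 25.5 and 26.2 CPM in the parental and 16.4 and 35.5 in the resistant libraries. One resistant library lay below both parental values and the other above, in the opposite order to EGFR. The means were nearly equal (log2 fold change 0.00 ± 0.35, 95% interval -0.86 to 0.87, edgeR adjusted p = 0.997), and the interval leaves room for sizeable changes either way. Resistant replicate 2 held 2.13 times the AREG level of replicate 1, a gap larger than in 97.1% of genes tested. AREGB, a near-identical copy, had 3.06 estimated counts in parental replicate 1 and 0 in the other libraries. AREG is reported with the uncertainty that reads shared between the copies bring. The part of shared reads in the AREG values was not tested. In the RefSeq gene order AREG and EREG lie next to each other on chromosome 4, flanked by EPGN and BTC, and of these 4 neighbours EREG was the member that passed the test.

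Both remaining EGFR ligands were close to their parental level or barely detected. BTC, betacellulin, measured 11.8 and 9.01 CPM in the parental and 11.6 and 9.40 in the resistant libraries, with overlapping lines (0.02 ± 0.24, edgeR adjusted p = 0.969). EPGN, epigen, had 9 counts summed over the parental and 3 over the resistant libraries, and was not tested (depth-scaled ratio 0.242, 95% counting interval 0.0422 to 0.970, counting error only).

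The TPM of the 7 EGFR ligands summed to 221 and 217 in parental replicates 1 and 2, and to 142 and 117 in resistant replicates 1 and 2. The sum was therefore lower in both resistant libraries (219 ± 2.32 against 129 ± 17.6, SD, n = 2 each); an exact permutation test of 2 against 2 cannot go below p = 0.333, so none is given. EREG made up 39.5% and 41.2% of the sum in the parental libraries, 34.9% in resistant replicate 1 and 26.1% in resistant replicate 2. TGFA made up 34.2% and 32.0%, then 34.7% and 27.6%. AREG took 16.3% and 16.5% in the parental libraries and 17.03% in resistant replicate 1, but 35.6% in resistant replicate 2, where it was the most abundant ligand. EGF took 0.526% and 0.598% of the sum in the parental and 3.87% and 2.31% in the resistant libraries, so the one member called higher remained a small part of ligand RNA.

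**Figure D2:**
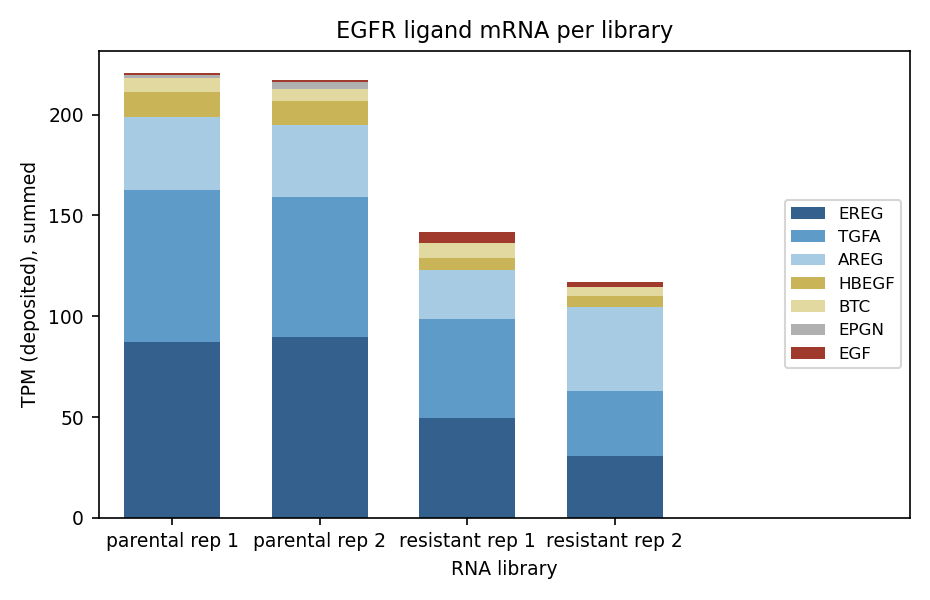
Deposited TPM of the 7 EGFR ligands, stacked for each RNA library; the height of a bar is their sum. The parental bars reach 221 and 217 TPM and the resistant bars 142 and 117, with smaller EREG and TGFA segments in both resistant libraries and a larger AREG segment in resistant replicate 2.

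NRG1, a neuregulin that binds ERBB3 and ERBB4, measured 16.5 and 16.1 CPM in the parental and 9.31 and 14.8 in the resistant libraries. Both resistant values lay below, 1 of them only slightly, and the log2 fold change of -0.44 ± 0.27 (95% interval -1.08 to 0.21) did not pass (edgeR adjusted p = 0.342). Without resistant replicate 2 it was -0.81 (adjusted p = 0.0132), and without resistant replicate 1 it was -0.13 (adjusted p = 0.426). NRG2, a second neuregulin, measured 12.8 and 10.3 in the parental and 12.9 and 11.0 in the resistant libraries (0.05 ± 0.22, adjusted p = 0.904), with overlapping lines. NRG3 had 4 and 1 counts in the parental and 15 and 2 in the resistant libraries, and NRG4 had 3 counts summed over the parental and 5 over the resistant libraries. Summed neuregulin TPM was 18.6 and 17.9 in the parental and 14.3 and 16.6 in the resistant libraries, far under the sum of the EGFR ligands in every library.

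ERRFI1, also called MIG6, binds the kinase domains of EGFR and ERBB2 and inhibits them, and its transcript is induced by ERK signalling. It measured 55.8 and 55.1 CPM in the parental and 59.3 and 35.7 in the resistant libraries. As with EGFR, resistant replicate 1 was the higher and replicate 2 lay below both parental values, so the lines overlapped (-0.22 ± 0.25, 95% interval -0.84 to 0.40, edgeR adjusted p = 0.612). Without resistant replicate 1 ERRFI1 was lower (-0.63, adjusted p = 0.00355) and without resistant replicate 2 the sign turned (0.09, adjusted p = 0.342).

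**Figure D3:**
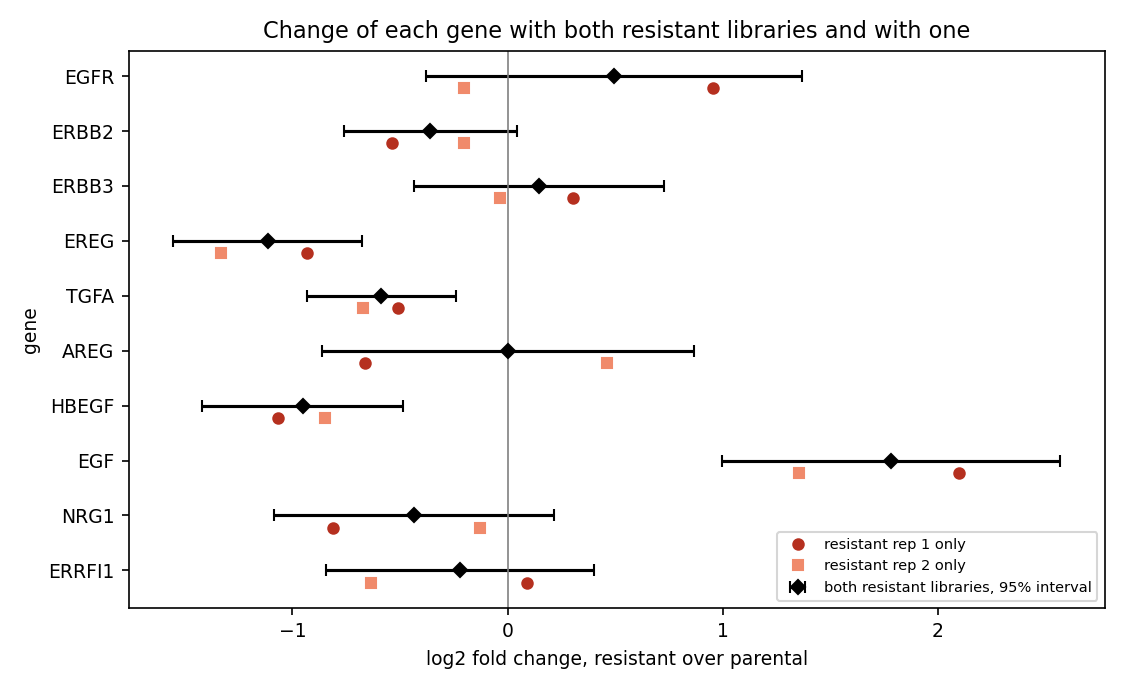
Log2 fold change (resistant over parental) of the 10 members: diamonds with 95% intervals from both resistant libraries, and points from fits that keep resistant replicate 1 only or replicate 2 only. The unadjusted intervals of EGF, EREG, HBEGF and TGFA exclude 0, and the single-replicate points of EGFR, AREG, ERBB3 and ERRFI1 lie on opposite sides of 0.

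Ordered by mean TPM, the members were well spread in the parental line and closer together in the resistant line. In the parental line EREG (88.4 TPM) led TGFA (72.4), followed by ERBB2 (36.9) and AREG (36.0), whose library ranges overlapped, then EGFR (28.8) and ERRFI1 (25.3). NRG1 (12.3) and HBEGF (11.63 and 12.46 in the 2 libraries) overlapped, and ERBB3 (4.03) and EGF (1.23) were the lowest members. In the resistant line TGFA (40.7), EGFR (40.5), EREG (40.1), AREG (32.9), ERBB2 (26.9) and ERRFI1 (21.4) followed each other with overlapping ranges between neighbours. NRG1 (9.23) came next and stood apart from its neighbours, and HBEGF (5.98), ERBB3 (4.90) and EGF (4.10) came below, with NRG2 and BTC between them and overlapping ranges from HBEGF to EGF.

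The genes that act on the ligands and receptors were read from the same fit, as lists chosen by known role. Of 10 tested genes of ligand shedding, 0 passed with edgeR and 0 with DESeq2, and the median log2 fold change was -0.31. An unadjusted edgeR p under 0.05 was seen in 2 of the 10, and in 3455 of all 12792 genes tested. The proteases ADAM9 and ADAM15 had the highest mean CPM of the list. ADAM9 measured 271 and 276 CPM in the parental and 226 and 128 in the resistant libraries (-0.63 ± 0.27, adjusted p = 0.202). ADAM15 measured 170 and 164 in the parental and 130 and 164 in the resistant libraries (-0.19 ± 0.16, adjusted p = 0.505). The resistant values of both lay below the parental ones, for ADAM15 by a very small margin in replicate 2. The 2 genes with an unadjusted p under 0.05 were ADAM12 and ADAM17, lower in both resistant libraries. ADAM12 changed by -0.83 ± 0.25 (edgeR adjusted p = 0.104) and ADAM17 by -0.68 ± 0.24 (adjusted p = 0.143). Of the 10 genes, both resistant libraries lay above both parental ones in 1 and below in 7, and the lines overlapped in 2. Among all genes tested, 30.9% lay above and 29.7% below.

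Of 22 adaptors and enzymes at the receptor, 1 rose and 0 fell with edgeR (median -0.16), while DESeq2 called 1 higher and 3 lower. VAV3, a guanine nucleotide exchange factor that is recruited to activated receptors, measured 5.94 and 8.63 CPM in the parental and 24.7 and 24.4 in the resistant libraries. Its resistant libraries stood well above the parental ones (1.75 ± 0.24, edgeR adjusted p = 0.0167), and the call was lost with limma on TPM alone among the alternatives. Of 13 relay genes of RAS, RAF, MEK and ERK, 0 passed with edgeR and 0 with DESeq2, and the median was 0.10. An unadjusted edgeR p under 0.05 was seen in 2 of the 13, where 3455 of all 12792 genes tested had one. The relay genes with the highest mean CPM were MAP2K2, which encodes MEK2 (0.30 ± 0.16, adjusted p = 0.271), and ARAF (0.28 ± 0.16, adjusted p = 0.306).

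Of 21 tested negative regulators and degradation factors, 0 rose and 1 fell with edgeR (median -0.25), while DESeq2 called 0 higher and 3 lower, and limma-voom 0 in either direction. PTPN12, a phosphatase that acts on receptor and adaptor tyrosines, measured 68.8 and 82.9 CPM in the parental and 45.8 and 38.9 in the resistant libraries (-0.84 ± 0.18, adjusted p = 0.0482). Its lines did not overlap, and the call passed in 6 of 13 alternatives: it was lost without parental replicate 1 (0.195) or 2 (0.522), with library totals (0.0666), the stricter filter on low counts (0.0560), limma-voom (0.0547) and limma on TPM (0.0815 with a pseudocount of 1). Of 20 endocytosis and sorting genes, 1 rose and 1 fell with edgeR (median -0.20), while DESeq2 called 2 higher and 1 lower. DNM2, the dynamin that cuts vesicles from the membrane, measured 252 and 238 in the parental and 519 and 602 in the resistant libraries (1.19 ± 0.15, adjusted p = 0.0148). AP2A1, a subunit of the clathrin adaptor AP-2, measured 120 and 126 in the parental and 64.7 and 66.0 in the resistant libraries (-0.91 ± 0.14, adjusted p = 0.0229). Both had lines that did not overlap, and both calls were lost without either parental library.

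Of 17 output genes of ERK signalling, which receptor activation induces, 0 passed with edgeR and 0 with DESeq2, and the median was -0.04. An unadjusted edgeR p under 0.05 was seen in 2 of the 17, where 3455 of all 12792 genes tested had one. IER3, an early response gene, measured 523 and 531 CPM in the parental and 413 and 478 in the resistant libraries (-0.24 ± 0.15, edgeR adjusted p = 0.347). CCND1, cyclin D1, measured 299 and 287 in the parental and 297 and 284 in the resistant libraries (-0.01 ± 0.14, 95% interval -0.35 to 0.32, adjusted p = 0.957). IER3 was lower in both resistant libraries and CCND1 overlapped.

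H3K27ac around EGFR was described from the authors' 4 peak lists, 1 per library, which hold no counts. The peak names differ in their tag between the resistant lists (CaboR20 in replicate 1, CaboR in replicate 2), and the labels do not say what the tag means. The window held 42 and 45 peaks in the parental lists and 76 and 38 in resistant replicates 1 and 2. Those peaks covered 12.3% and 18.7% of the 350 kb in parental replicates 1 and 2, and 19.2% and 28.6% in the resistant line. Resistant replicate 1 had the most peaks and resistant replicate 2 the widest, with a median width in the window of 1577 bp against 658.5 bp in replicate 1 and 698 and 884 bp in the parental lists. Over the whole genome the peaks of replicate 2 were also wider in both lines (median 924 and 1041 bp, against 674 and 604 bp in replicate 1), and their part in the covered length was not tested. As a share of each list's own covered length the window held 0.0766% and 0.0771% in the parental and 0.146% and 0.115% in the resistant lists. That share of cover was thus higher in both resistant libraries and nearly equal in the parental ones. By number of peaks, the window held 0.0766% and 0.0776% of the parental lists. It held 0.145% of resistant replicate 1 and 0.0719% of resistant replicate 2, the latter below both parental lists. Chromosome 7 as a whole held 5.66% and 6.11% of the covered length in the parental and 7.27% and 6.34% in the resistant lists. Of that chromosome's cover the window held 1.35% and 1.26%, then 2.01% and 1.82%. Within each list the window was densely marked: of the 350-kb tiles that held a peak, 97.2% and 98.0% in the parental and 99.6% and 99.5% in the resistant lists had less cover.

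Merged over the 4 lists at 1 bp of overlap, the window held 65 regions. Of these, 14 had a peak in all 4 libraries (21.5%, against 22.0% of 89076 regions of the genome). A peak in both resistant and no parental library, called gained, was seen in 6 regions (9.23%), where 3.43% of regions of the genome and 4.69% of those on the rest of chromosome 7 were gained. A peak in both parental and no resistant library, called lost, was seen in 0 regions, where 3.92% of the genome's and 3.61% of the rest of chromosome 7's regions were lost. The other 45 regions did not separate the lines; 15 of them were seen in resistant replicate 1 alone. Neighbouring regions share their source libraries, so these shares are a description with no test.

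The 6 gained regions were chr7:55000452-55001842, chr7:55101061-55103176, chr7:55103957-55105179, chr7:55105565-55106294, chr7:55259397-55260393 and chr7:55312250-55314369 (hg19). They formed a group of 3 next to each other, from 55101061 to 55106294, and 3 single regions nearer the edges of the window. By the authors' peak score, whose unit the files do not name, the 6 regions varied widely within their own lists, and 3 of them stood above 60.9% or more of the peaks in both resistant lists. The region at 55000452 stood above 86.2% of all peaks in resistant replicate 2 and 71.2% in replicate 1, while that at 55105565 stood above only 7.41% and 41.2%. A score minimum of 5 left 7 gained and 0 lost regions, and merging peaks within 500 bp left 4 gained and 0 lost.

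The strongest marks of the window were shared by both lines. The region chr7:55195066-55203295 (hg19) held the highest score of the window in both parental libraries (45.8 and 44.5) and in resistant replicate 2 (134), above 98.0%, 98.5% and 99.9% of the peaks of those lists. In resistant replicate 1 the highest score of the window, 52.2, lay in chr7:55085523-55091297, with 47.2 in the former region. Scores were compared only within a list. The longest shared region, chr7:55126431-55147050, held 8 and 9 peaks in the parental lists and 9 in resistant replicate 1, covering 41.6%, 63.2% and 49.9% of its length, whereas 2 wide peaks covered 95.6% of it in resistant replicate 2. Peak number and cover therefore ranked the resistant replicates in opposite order there.

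**Figure D4:**
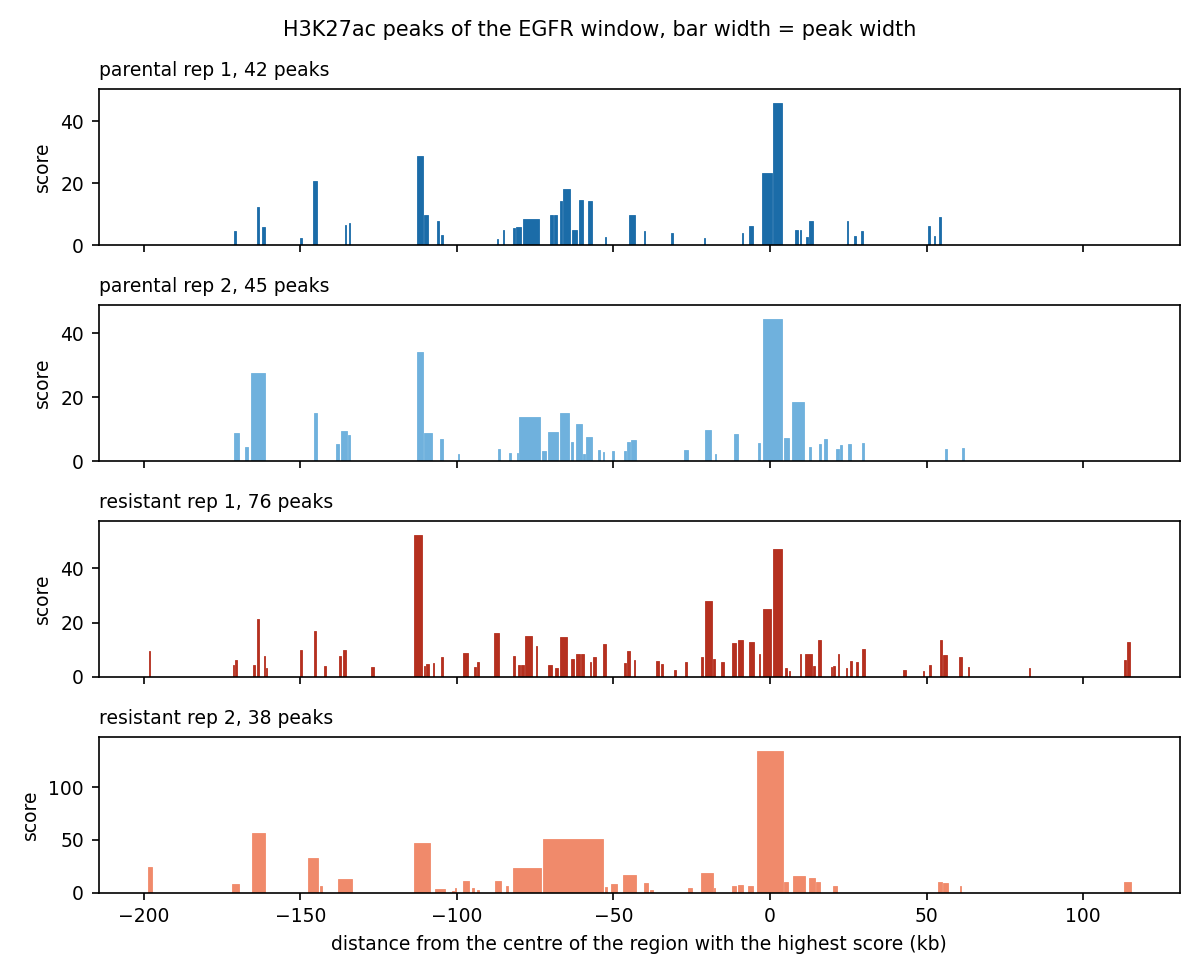
H3K27ac peaks in the EGFR window, 1 panel per library; each bar spans a peak, its height is the authors' score (each panel has its own axis) and the horizontal axis is the distance in kb from the centre of chr7:55195066-55203295. The same shared peaks stand out in all 4 panels; resistant replicate 1 has the most peaks (76) and resistant replicate 2 fewer and wider ones (38).

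The 2 kinds of data were set side by side by library number only. EGFR RNA was high in resistant replicate 1 alone (395 CPM against 176 in resistant replicate 2), while the window's share of peak cover was higher than parental in both resistant libraries. The window's share of the number of peaks was above the parental lists in resistant replicate 1 (0.145%) and below them in replicate 2 (0.0719%). Peak number (76) was highest in resistant replicate 1 and covered length (28.6% of the window) in resistant replicate 2. With 2 libraries per line and no stated link between RNA and ChIP libraries, no relation between them was tested.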

How the data were processed

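RNA-seq was deposited as RSEM estimated counts and TPM per gene symbol, and H3K27ac ChIP-seq as 1 peak list per library with a score per peak. The submitters' processing notes list the tools STAR, RSEM and DESeq2 1.40.2, and hg19 and GRCh38 as builds, with no roles. Per the labels, reads were 150-bp paired and chromatin was fixed in 1% formaldehyde for 10 min. How peaks were called and scored, with or without inputs, and the strand of counting are not given in the sources, so reads of genes that overlap EGFR on the other strand cannot be told apart from its own. Of the deposited estimated counts, 3.16% were fractional and were rounded. The deposited TPM served for levels between genes and for limma alternatives, with pseudocounts of 1 and 0.1. The authors' peak score was used only within a list. The tables hold 28 date-like symbols, which were left as found.

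Line was the only term in edgeR 4.0.16 (R 4.3.3; filterByExpr, TMM, quasi-likelihood F test, Benjamini-Hochberg over all genes tested); limma 3.58.1 and DESeq2 1.42.0 gave alternatives, and the code was tested on simulated data. Fold changes are resistant over parental. Alternatives were other scalings, filters and tests, a replicate block, leaving out each library, and other peak minimums and merging rules. All 10 members and the other family genes were named whatever their values; from other lists, up to 3 called genes in each direction, or the 2 with the highest mean CPM where none was called; and the 3 genes most like EGFR. ADAM12 and ADAM17 were named outside that rule, for their unadjusted p, and in the ligand shedding list alone. The members and lists were chosen with earlier results of these data known. Peaks were read with Python 3.11.15 and pandas 2.3.3, and figures drawn with matplotlib 3.10.9. Positions of peaks are hg19 and of genes and promoters GRCh38 (RefSeq, GRCh38.p14); none was converted. Counting intervals and ratios cover counting error only.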

Additional observations from a re-analysis of the deposited data

How the results depend on the processing

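With 2 libraries per line, the calls of EREG and HBEGF were lost without either parental library, and that of EGF was kept. EGF, EREG and HBEGF all kept their calls without either resistant library. Those fits take the spread from the close parental pair alone, so the calls there add little. Among all genes, 379 were called higher and 436 lower; the counts were 609 and 737 with the DESeq2 Wald test, 243 and 282 with limma on log2(TPM + 1), 217 and 243 on log2(TPM + 0.1), 24 and 73 at an adjusted p of 0.01, and 531 and 373 with library totals in place of TMM. Leaving out 1 library gave 141 to 3374 higher and 264 to 3479 lower, with the high counts where a resistant library was left out. Members called higher (1) were 0 with limma-voom, 0 with limma on TPM at either pseudocount, 0 at an adjusted p of 0.01, and 1 to 2 with a library left out. Members called lower (2) were 1 with the mean log2 CPM filter of 2, 0 with limma on TPM at either pseudocount, 0 at an adjusted p of 0.01, and 0 to 6 with a library left out. EGF, EREG and HBEGF kept their direction in all 13 alternatives each (log2 fold changes 1.14 to 2.10, -1.33 to -0.93 and -1.07 to -0.85). They passed in 10, 9 and 8 of them, each time counting both fits without a resistant library.

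The sign of some values turned. AREG was -0.002697 with DESeq2 size factors, -0.012 with no filter beyond 1 count, -0.00041 with the DESeq2 Wald test, -0.11 with limma-voom, -0.17 on log2(TPM + 1), -0.18 on log2(TPM + 0.1), and -0.66 to 0.46 with a library left out. BTC was -0.24 and -0.29 on those TPM scales and -0.17 to 0.21 with a library left out. CCND1 was 0.069 with library totals and -0.051 to 0.011 with a library left out. Leaving out a library gave -0.20 to 0.95 for EGFR, -0.037 to 0.30 for ERBB3, -0.63 to 0.091 for ERRFI1, -0.11 to 0.21 for NRG2, -0.25 to 0.83 for NPC1 and -0.28 to 0.78 for CLMP. In the EGFR window, gained regions (6) were 8 to 26 and lost regions (0) were 1 to 6 with a peak list left out, where a line then needs a peak in 1 list only. Other causes were not tested.

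The replicate numbers pair no samples by any label, and the correlation of replicate differences between the lines was -0.0478. With a replicate block, 860 genes were called higher and 1020 lower, the members' counts stayed at 1 and 2, and AREG was -0.089. Called lower under the block were 3 genes of ligand shedding (0 without it), 5 negative regulators (1), 5 adaptors (0) and 2 relay genes (0).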

Other observations

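The genes whose pattern over the 4 RNA libraries was most like that of EGFR, among 5757 tested genes at an average log2 CPM of at least 5, were NPC1, CLMP and FAM129A. NPC1, a cholesterol transporter of late endosomes and lysosomes, measured 191 and 188 CPM in the parental and 339 and 160 in the resistant libraries, a root mean square difference from EGFR of 0.0510 on the log2 scale. CLMP, an adhesion molecule of epithelial junctions, measured 40.8 and 41.9 in the parental and 71.6 and 34.0 in the resistant libraries (difference 0.0749). FAM129A measured 134 and 135 in the parental and 284 and 135 in the resistant libraries (difference 0.0912). Like EGFR, NPC1 and CLMP were above both parental values in resistant replicate 1 and below both in replicate 2; FAM129A was high in replicate 1 and just above the parental values in replicate 2.

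The coding genes beside EGFR on chromosome 7 differed from it in their replicates; they were singled out after their values were seen. SEC61G, a subunit of the protein translocation channel, measured 78.3 and 89.6 CPM in the parental and 107 and 155 in the resistant libraries (log2 fold change 0.64 ± 0.21, edgeR adjusted p = 0.124). LANCL2 measured 19.9 and 20.7 in the parental and 28.7 and 28.6 in the resistant libraries (0.50 ± 0.16, adjusted p = 0.118). VOPP1 measured 133 and 130 in the parental and 199 and 246 in the resistant libraries (0.76 ± 0.16, adjusted p = 0.0492). In all 3 both resistant libraries lay above both parental ones, as they did in 30.9% of all genes tested. VOPP1 passed the test, where 2.96% of all genes tested were called higher. Its call was lost with DESeq2 size factors (0.0517), no filter beyond 1 count (0.0566), the stricter filter on low counts (0.0531) and limma-voom (0.0546). It was also lost without parental replicate 1 or 2.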
